A study of Mus musculus with 6 samples.

Results

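The transcripts of 32 cytosolic and mitochondrial heat shock chaperone genes were measured in mouse embryonic stem cells (ESCs). They were chosen by symbol, as the major Hsp70, Hsp90, Hsp60, TRiC and small heat shock protein genes with their main partners and their transcription factors, out of the 53927 gene symbols in each library. The choice was made with earlier results of these data known. All 32 were found in every file and all 32 passed the filter on low counts. Of the 6 libraries, 3 of ESCs were labelled BRD0705/PD03, from cells in serum-free N2B27 medium with 8 µM BRD0705, an inhibitor selective for the kinase GSK3α, and 1 µM PD0325901, an inhibitor of the kinase MEK. The other 3 were labelled 2i, from cells in N2B27 medium with 3 µM CHIR99021, which inhibits both GSK3 isoforms, and the same 1 µM PD0325901. The GSK3 inhibitor thus differed between the groups, and the MEK inhibitor was common to them. Every library is labelled wild type. The labels name the line E14, whereas the growth protocol describes B6D2F1 ESCs derived and expanded on feeders separately in each medium, so a difference between derived lines and a difference between media cannot be told apart. The labels do not say that libraries came from separate cultures, and p-values reflect no more than the scatter among the libraries at hand, possibly technical.

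Heat shock chaperones bind unfolded or partly folded proteins and keep them from aggregating. Hsp70 proteins take clients from J-domain proteins (Hsp40) and release them with nucleotide exchange factors, Hsp90 finishes the folding of kinases and hormone receptors with a set of co-chaperones, and the ring-shaped chaperonins TRiC, in the cytosol, and Hsp60, in mitochondria, enclose a client while it folds. Small heat shock proteins hold unfolded clients. Hsf1 is the main activator of the inducible genes, which it reaches through heat shock elements, repeats of the unit nGAAn in alternating orientation. Many of the other genes are expressed all the time and at high level in growing cells.

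The 250 bases upstream of the start site are shown for the tandem inducible Hsp70 genes, for the small heat shock protein gene Hspb1 and for the co-factor gene Bag3, as examples of classical inducible genes and of members with larger differences, chosen with their values known. The sequences are RefSeq's, on GRCm38.p6, given 5′ to 3′ on the gene's strand, and end at the base before the start site. Capitals mark 2 facing units of a heat shock element, GAANNTTC or TTCNNGAA, and each of these reads the same on both strands. The windows are chr17:34972157-34972406 (minus strand) for Hspa1a, chr17:34959239-34959488 (minus) for Hspa1b, chr5:135887669-135887918 (plus) for Hspb1 and chr7:128523333-128523582 (plus) for Bag3.
Hspa1a: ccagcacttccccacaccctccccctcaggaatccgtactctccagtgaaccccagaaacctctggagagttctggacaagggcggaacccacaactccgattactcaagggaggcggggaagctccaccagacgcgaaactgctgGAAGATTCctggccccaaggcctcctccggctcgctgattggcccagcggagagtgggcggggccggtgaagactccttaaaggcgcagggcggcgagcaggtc
Hspa1b: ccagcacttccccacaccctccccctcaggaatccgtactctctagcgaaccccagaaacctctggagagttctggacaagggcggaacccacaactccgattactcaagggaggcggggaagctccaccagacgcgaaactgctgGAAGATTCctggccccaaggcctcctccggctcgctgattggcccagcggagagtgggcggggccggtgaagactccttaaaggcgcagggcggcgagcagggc
Hspb1: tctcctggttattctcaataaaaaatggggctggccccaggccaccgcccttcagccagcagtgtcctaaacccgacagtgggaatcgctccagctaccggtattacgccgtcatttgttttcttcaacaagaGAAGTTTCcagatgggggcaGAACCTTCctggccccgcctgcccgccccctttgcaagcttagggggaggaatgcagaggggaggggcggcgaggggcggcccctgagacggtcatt
Bag3: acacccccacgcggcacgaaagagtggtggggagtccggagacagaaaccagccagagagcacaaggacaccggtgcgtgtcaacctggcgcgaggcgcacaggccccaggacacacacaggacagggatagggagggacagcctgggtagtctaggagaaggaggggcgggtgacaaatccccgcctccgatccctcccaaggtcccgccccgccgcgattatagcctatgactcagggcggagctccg
The Hspa1a and Hspa1b windows differed at 3 of 250 bases, and each held a 2-unit match that began 104 bases upstream. The Hspb1 window held 2 matches, 117 and 97 bases upstream. The Bag3 window held none of these letters. A longer match stands upstream of a RefSeq start site of Hspd1 and of that of Hspe1, the genes of mitochondrial Hsp60 and its lid Hsp10, which are read in opposite directions on chromosome 1. It lies at chr1:55088059-55088076, inside an annotated exon, and is shown on the minus strand, because it joins 4 units in a row.
Hspd1/Hspe1 element: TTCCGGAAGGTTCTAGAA
Of the 32 members, 25 had a window in the RefSeq table, and the 7 without were Hspa8, Hspa9, Hsp90aa1, Hsp90ab1, Cct4, Hsf1 and St13. A 2-unit match was in a window of 11 of the 25 (44.0%), against 14.5% of all 27025 genes with a window and 12.7% of the 12655 tested genes with a window. The 3-unit forms TTCNNGAANNTTC and GAANNTTCNNGAA, which contain the 2-unit form, were in the windows of Hspd1 and Hspe1, 8.0% of the 25 genes, against 0.514% of all genes. Hspd1 and Hspe1 share that stretch of DNA, so they are not separate occurrences. Nor are Hspa1a and Hspa1b, whose windows are nearly identical, separate in the 2-unit count. The matches describe letters in a window and not binding. Only exact matches within 250 bases were sought, so a window without one may still have a looser or more distant element.

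Transcript levels were compared between genes as CPM, counts scaled to a common library size, per kilobase of the main transcript in GENCODE M21. On this scale Hsp90aa1, the inducible cytosolic Hsp90, ranked first in both groups, at a mean of 1893 CPM per kb in BRD0705/PD03 and 1899 in 2i. The next places belonged to its constitutive partner Hsp90ab1, at 1557 CPM per kb in BRD0705/PD03 and 1326 in 2i, and to Hspa8, the constitutive Hsp70, at 1265 in BRD0705/PD03 and 1415 in 2i. With the counts of its close copy Gm15459 added, Hspa8 was at 2341 CPM per kb in BRD0705/PD03 and 2649 in 2i, above Hsp90aa1 with its own copy added (1903 and 1909), so the first place turns on how reads were divided. Hspd1 followed in each group, at 424 CPM per kb in BRD0705/PD03 and 452 in 2i. The inducible Hsp70 genes were the lowest members. Hspa1a was at 1.10 CPM per kb in BRD0705/PD03 and 0.782 in 2i, and Hspa1b at 2.69 and 1.83. Hsf1, whose protein is controlled mainly after translation, stood low as well, at 12.5 and 11.6 CPM per kb. The members with the largest relative differences were mostly those of low level, with Hspb1 and Hsph1 as the exceptions among the more abundant.

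**Figure D1:**
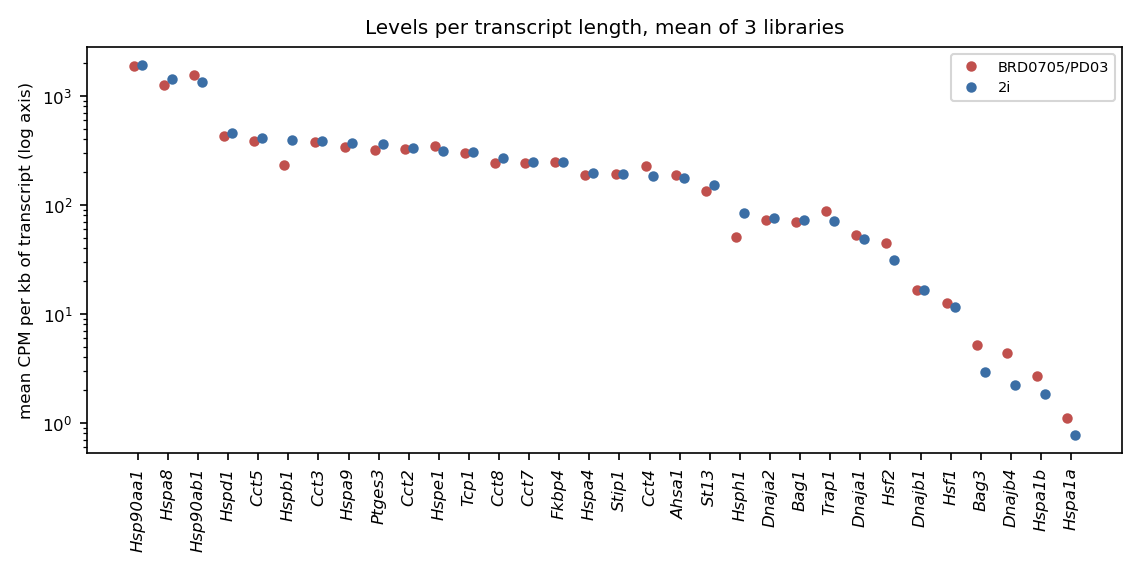
Mean level of each of the 32 members in CPM per kilobase of the main transcript, on a log axis, in BRD0705/PD03 (red, left point) and 2i (blue, right point), ordered by the level in 2i. Hsp90aa1, Hspa8 and Hsp90ab1 stand apart at the top, and Hspa1a, at 1.10 and 0.782 CPM per kb, is last in both groups.

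Of the 32 members, 11 were higher in BRD0705/PD03, 7 were lower and 14 passed the test in neither direction. These calls are edgeR's quasi-likelihood test with a Benjamini-Hochberg adjusted p under 0.05 over all 20422 genes tested. By the same rule, 34.4% of the members were higher and 21.9% lower, against 30.1% and 31.4% of all tested genes. With 18 of 32 members called and 61.4% of all tested genes called, the share is near that of all tested genes. Of the 13040 tested genes at or above the lowest member's mean CPM, 33.5% were higher and 38.1% lower. At a mean of at least 100 CPM, 35.3% were higher and 36.4% lower. Beside these more abundant genes, the members had a similar share of higher calls and a smaller share of lower ones. The members' differences were small. The median log2 fold change of the members was -0.02 and the median absolute value 0.13, against 0.0003 and 0.40 over all tested genes and -0.006 and 0.21 over the 2308 tested genes whose mean reached 100 CPM. An absolute log2 fold change over 0.5 was found in 7 members (21.9%), all of them called, against 42.6% of all tested genes (38.0% counting only called ones) and 21.3% of those that reached 100 CPM. Among these 7, only Hsph1 and Hspb1 reached a mean of 100 CPM themselves, so the 21.3% is from a more abundant range. At or above the lowest member's mean CPM, the share was 35.8%. The higher members were Hspa1a, Hspa1b, Dnajb4, Dnaja1, Bag3, Hsp90ab1, Ahsa1, Trap1, Hspe1, Cct4 and Hsf2, and the lower ones were Hspa8, Hsph1, St13, Ptges3, Hspa9, Hspb1 and Cct8. The libraries of the groups did not overlap for 12 members above and 10 below, where 32.4% and 33.6% of all tested genes had no overlap in these directions. Without BRD0705/PD03 replicate 3, 7 members were higher and 7 lower, as were 5650 and 6068 of all 20675 genes then tested. For 13 members, over 10% of the 31-base stretches of the transcript recur in another gene, and adding the counts of the closest copy, where the files list it, changed none of their calls.

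**Figure D2:**
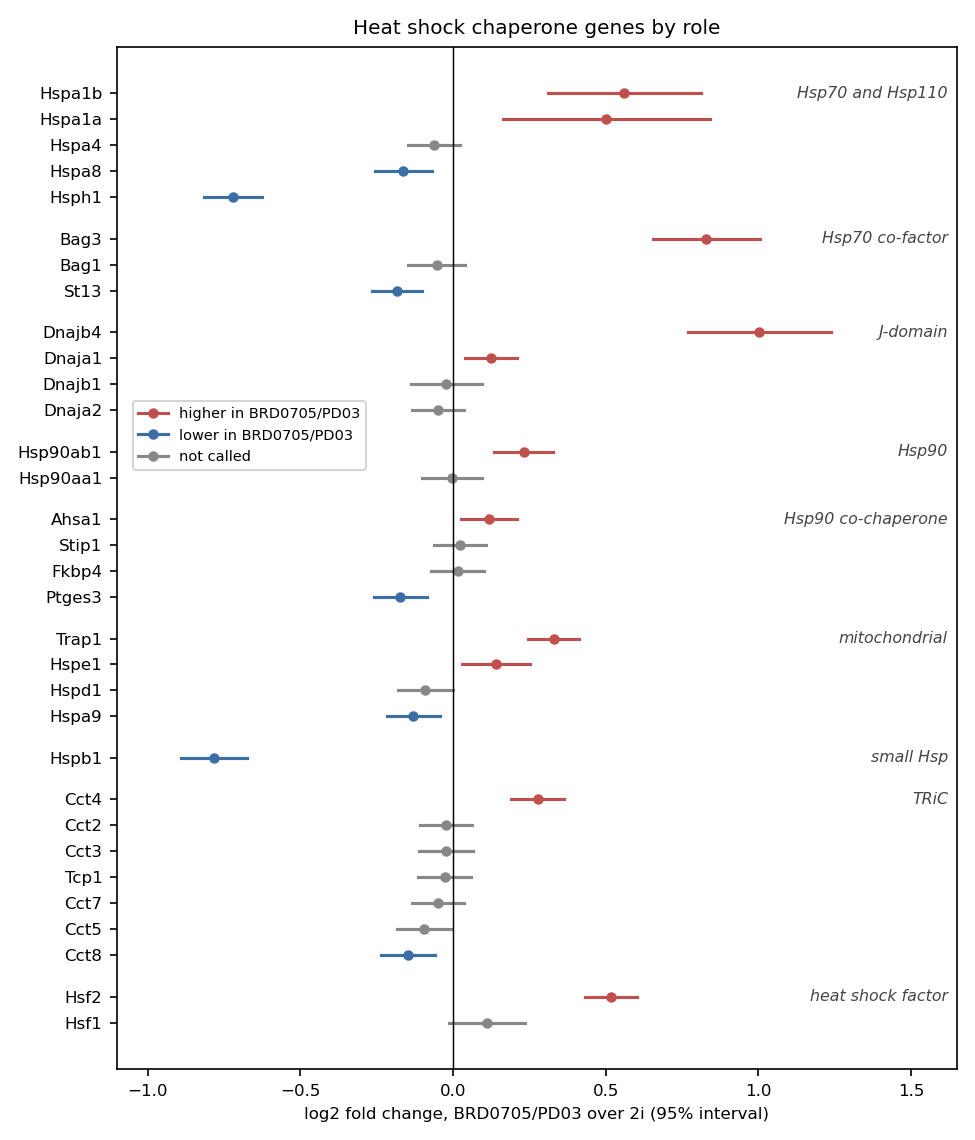
Log2 fold change of each member, BRD0705/PD03 over 2i, with its 95% interval from the edgeR fit, grouped by role; red members were called higher, blue lower and grey neither. Most points lie close to 0, Dnajb4 (1.00) and Bag3 (0.83) are farthest right, and Hspb1 (-0.78) and Hsph1 (-0.72) farthest left.

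The summed counts of the 32 members made up 2.43%, 2.49% and 2.49% of the counts in the BRD0705/PD03 libraries, against 2.50%, 2.50% and 2.45% in the 2i libraries. The groups overlapped, with means of 2.47 ± 0.0365% and 2.48 ± 0.0307% (SD, n = 3 each). In these bulk samples fewer cells of a type and less RNA per cell cannot be told apart.

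Among the Hsp70 genes, the inducible and the constitutive forms differed in direction. Hspa1a, a stress-inducible cytosolic Hsp70, had 3.27, 2.83 and 3.68 CPM in BRD0705/PD03, against 2.49, 2.37 and 2.09 CPM in 2i. Every BRD0705/PD03 library was above every 2i library, with a log2 fold change of 0.50 ± 0.16 (SE; edgeR adjusted p = 0.0113). The counts behind it were 78 to 150 in BRD0705/PD03 and 42 to 119 in 2i. The call was lost with DESeq2 (adjusted p = 0.129) and without BRD0705/PD03 replicate 3 (edgeR adjusted p = 0.0723).

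Hspa1b, which encodes nearly the same protein 9951 bases away on chromosome 17, had 8.47, 6.28 and 7.90 CPM in BRD0705/PD03, against 5.16, 5.19 and 5.05 CPM in 2i. It was higher by 0.56 ± 0.12 on the log2 scale (SE; edgeR adjusted p = 0.000469). The 2i libraries lay close together and the BRD0705/PD03 libraries were spread above them. Hspa1a and Hspa1b transcripts share 65.4% and 68.0% of their 31-base stretches with other genes' transcripts, mostly with each other, so the split of reads between them is uncertain. Added together, the 2 genes had 11.7, 9.12 and 11.6 CPM in BRD0705/PD03, against 7.66, 7.56 and 7.14 CPM in 2i, and a log2 fold change of 0.54 ± 0.10 (edgeR adjusted p = 0.000152).

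Hspa8, the constitutive Hsc70 that serves general folding and clathrin uncoating, had 3025, 3053 and 3007 CPM in BRD0705/PD03, against 3424, 3498 and 3242 CPM in 2i. All BRD0705/PD03 libraries were below all 2i libraries, and the log2 fold change was -0.16 ± 0.04 (SE; edgeR adjusted p = 0.00348). Of its 31-base stretches, 77.2% occur in another gene's transcript, foremost in the gene model Gm15459. That model was listed with 72045 to 104506 counts in BRD0705/PD03 and 50456 to 153186 in 2i. With the counts of Gm15459 added, the Hspa8 log2 fold change was -0.18 (edgeR adjusted p = 0.0023).

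Hsph1 (Hsp110), which acts as an exchange factor for Hsp70 and helps to dissolve aggregates, was among the members with the largest decrease. It had 186, 189 and 203 CPM in BRD0705/PD03, against 311, 334 and 307 CPM in 2i. The groups were far apart relative to their spread, with a log2 fold change of -0.72 ± 0.05 (SE; edgeR adjusted p = 8.01e-11). Hspa4, another Hsp110 family member, did not pass the test, at 864 ± 25.3 CPM in BRD0705/PD03 and 902 ± 6.61 CPM in 2i (SD, n = 3 each). Its 95% interval of the log2 fold change was -0.15 to 0.02.

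The Hsp70 co-factors did not move together. Bag3, an exchange factor that couples Hsp70 to selective autophagy, had 13.3, 13.4 and 13.4 CPM in BRD0705/PD03, against 7.83, 7.66 and 7.06 CPM in 2i. The log2 fold change was 0.83 ± 0.08 (SE; edgeR adjusted p = 6.33e-08), and the BRD0705/PD03 libraries were nearly equal. St13 (Hip), which stabilizes the client-bound state of Hsp70, was lower, at 437 to 457 CPM in BRD0705/PD03 and 496 to 516 CPM in 2i, a log2 fold change of -0.18 ± 0.04. Bag1, an exchange factor linked to the proteasome, had 74.2 ± 2.92 CPM in BRD0705/PD03 and 77.0 ± 2.26 CPM in 2i (SD, n = 3 each) and passed in neither direction.

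Of the 4 J-domain genes, 2 were higher and 2 passed in neither direction. Dnajb4 (Hlj1), a cytosolic Hsp40 of the same class as Dnajb1, showed the largest increase of the 32 members. It had 9.28, 11.1 and 12.3 CPM in BRD0705/PD03, against 5.82, 5.21 and 5.49 CPM in 2i. The log2 fold change was 1.00 ± 0.11 (SE; edgeR adjusted p = 2.63e-07), with no overlap between the groups. Called changes of 2-fold or more upwards were found in 10.9% of all tested genes. Dnaja1, a farnesylated Hsp40, was higher by 0.12 ± 0.04 on the log2 scale, at 292 to 305 CPM in BRD0705/PD03 and 264 to 281 CPM in 2i. Its call was lost without BRD0705/PD03 replicate 3 (edgeR adjusted p = 0.0613).

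Dnajb1, the classical heat-inducible Hsp40, had 48.0, 51.1 and 49.4 CPM in BRD0705/PD03, against 46.9, 54.3 and 48.5 CPM in 2i. The groups overlapped, and the 95% interval of its log2 fold change ran from -0.14 to 0.10. Dnaja2, which works with Hspa8 in refolding, was at 213 ± 6.17 CPM in BRD0705/PD03 and 219.8 ± 7.01 CPM in 2i (SD, n = 3 each).

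**Figure D3:**
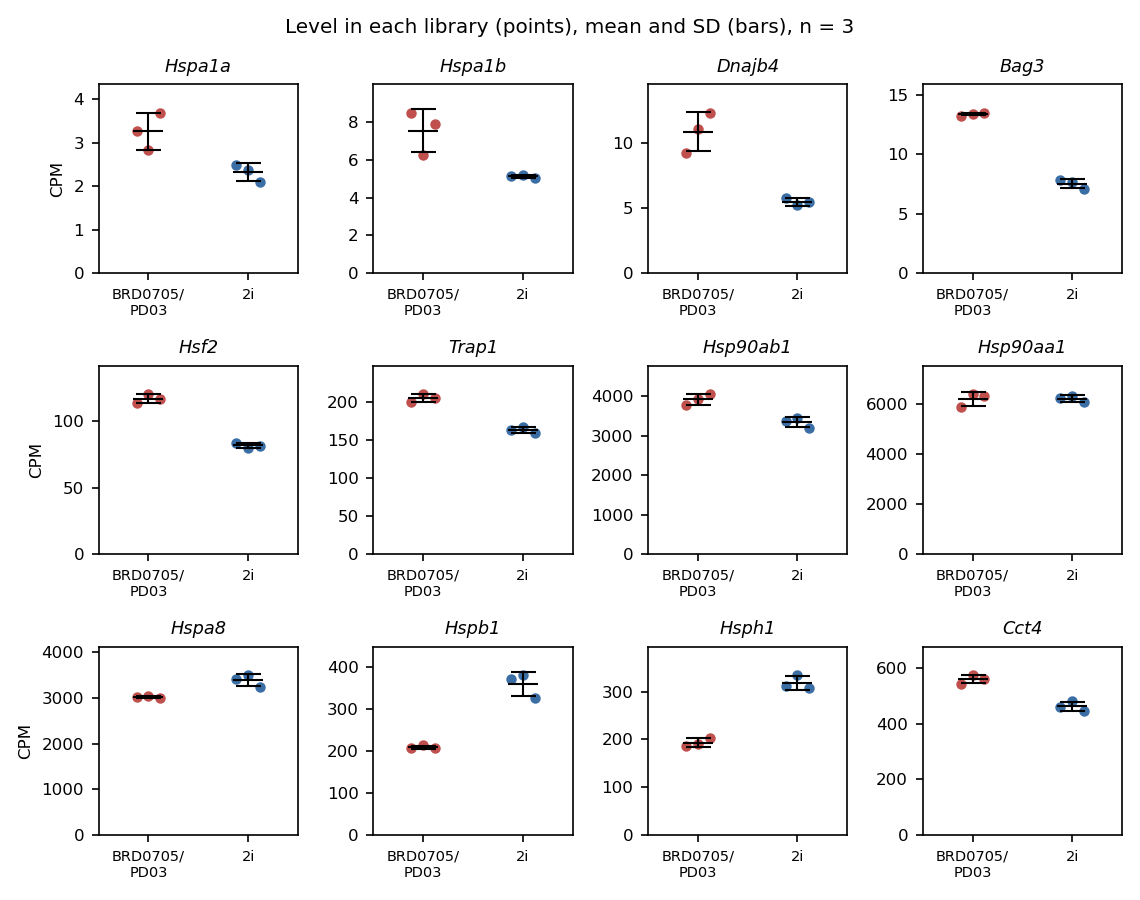
CPM of 12 members in each library (points), with mean and SD (bars, n = 3), BRD0705/PD03 in red on the left and 2i in blue on the right of each panel; each axis starts at 0. The groups overlap in the Hsp90aa1 panel and are separate in the other panels, and Hspb1 and Hsph1 show the widest gaps among the more abundant genes.

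The cytosolic Hsp90 genes differed from each other. Hsp90ab1, the constitutive form, had 3782, 3938 and 4051 CPM in BRD0705/PD03, against 3380, 3442 and 3205 CPM in 2i. It was higher by 0.23 ± 0.05 on the log2 scale (SE; edgeR adjusted p = 0.000229), and no libraries overlapped. Hsp90aa1, the inducible form, had 5908, 6403 and 6325 CPM in BRD0705/PD03, against 6271, 6342 and 6077 CPM in 2i. These groups overlapped, and the 95% interval of the log2 fold change was -0.10 to 0.09. Of the stretches of Hsp90aa1, 62.9% recur in other genes' transcripts, foremost in Gm12346, and the log2 fold change was -0.004 with the counts of that model added.

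Of the 4 Hsp90 co-chaperone members, 1 was higher and 1 lower. Ptges3 (p23), which holds Hsp90 in its closed form, had 618, 651 and 648 CPM in BRD0705/PD03, against 722, 743 and 696 CPM in 2i, a log2 fold change of -0.17 ± 0.04 (SE; edgeR adjusted p = 0.00133). No libraries overlapped. Ahsa1 (Aha1), which speeds Hsp90's ATPase, was higher by 0.12 ± 0.04 on the log2 scale, with 250.1 to 269 CPM in BRD0705/PD03 and 229.5 to 249 CPM in 2i. Its call was lost without BRD0705/PD03 replicate 2 (edgeR adjusted p = 0.108) and without BRD0705/PD03 replicate 3 (0.082). Stip1 (Hop), which hands clients from Hsp70 to Hsp90, had 408 ± 9.07 CPM in BRD0705/PD03 and 402 ± 14.1 CPM in 2i. Fkbp4 (Fkbp52), a prolyl isomerase of steroid receptor complexes, had 551 ± 17.4 CPM in BRD0705/PD03 and 545 ± 17.2 CPM in 2i (SD, n = 3 each). Neither passed the test.

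Among the mitochondrial members, Trap1, the Hsp90 of the mitochondrial matrix, showed the clearest difference. It had 200.1, 211 and 206 CPM in BRD0705/PD03, against 164, 167 and 159 CPM in 2i, and a log2 fold change of 0.33 ± 0.04 (SE; edgeR adjusted p = 7.35e-07). Hspa9 (mortalin), the matrix Hsp70 that pulls proteins through the inner membrane, was lower by a log2 fold change of -0.13 ± 0.04, at 994 to 1070 CPM in BRD0705/PD03 and 1127 to 1139 CPM in 2i. The call was lost with upper-quartile scaling (edgeR adjusted p = 0.0724) and without the filter on low counts (0.0625).

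The Hsp60 and Hsp10 genes, which encode partners of 1 folding chamber, did not shift alike. Hspd1 had 976, 1062 and 1044 CPM in BRD0705/PD03, against 1089, 1118 and 1076 CPM in 2i, and did not pass the test (log2 fold change -0.09 ± 0.04, SE; edgeR adjusted p = 0.0755). Hspe1 had 268, 267 and 271 CPM in BRD0705/PD03, against 243, 264 and 222 CPM in 2i, a log2 fold change of 0.14 ± 0.05 (edgeR adjusted p = 0.0286). That call was lost in 5 of the 6 fits that left out 1 library. The annotated genes overlap by 112 bases on opposite strands, and whether reads were counted by strand is not stated.

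Hspb1 (Hsp25), a small heat shock protein that binds unfolded clients and actin, was the member with the largest decrease. It had 206, 213 and 207 CPM in BRD0705/PD03, against 370.1, 380.1 and 327 CPM in 2i. The BRD0705/PD03 libraries were all far below the lowest 2i library, with a log2 fold change of -0.78 ± 0.05 (SE; edgeR adjusted p = 7.49e-10). Per kilobase it ranked 15 of the 32 members in BRD0705/PD03 and 6 in 2i. Its transcript shares 61.7% of its stretches with other genes, foremost the pseudogene Hsp25-ps1, which was listed with 0 counts in every BRD0705/PD03 library and with at most 10 counts in a 2i library.

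TRiC is built from 8 different subunits in equal numbers, and 7 of its genes are members. Cct4 was higher, with 544, 573 and 561 CPM in BRD0705/PD03, against 459, 479.5 and 445 CPM in 2i, a log2 fold change of 0.28 ± 0.04 (SE; edgeR adjusted p = 1.07e-05). Cct8 was lower, with 555, 597 and 589 CPM in BRD0705/PD03, against 646, 656 and 627 CPM in 2i, a log2 fold change of -0.15 ± 0.04 (edgeR adjusted p = 0.00469). In both genes the groups did not overlap. The other 5 members, Tcp1, Cct2, Cct3, Cct5 and Cct7, had log2 fold changes between -0.09 and -0.02 and did not pass the test, and all of these but Cct5 were above 0 with upper-quartile scaling. Cct6a, the gene of the remaining subunit, is no member and was named after its values were seen. It was lower, with 769, 782 and 763 CPM in BRD0705/PD03, against 892, 909 and 853 CPM in 2i (log2 fold change -0.20 ± 0.04, SE). Per kilobase, the 7 members ranged over 225 to 384 CPM in BRD0705/PD03 and 186 to 410 CPM in 2i, with Cct4 lowest and Cct5 highest in each group.

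**Figure D4:**
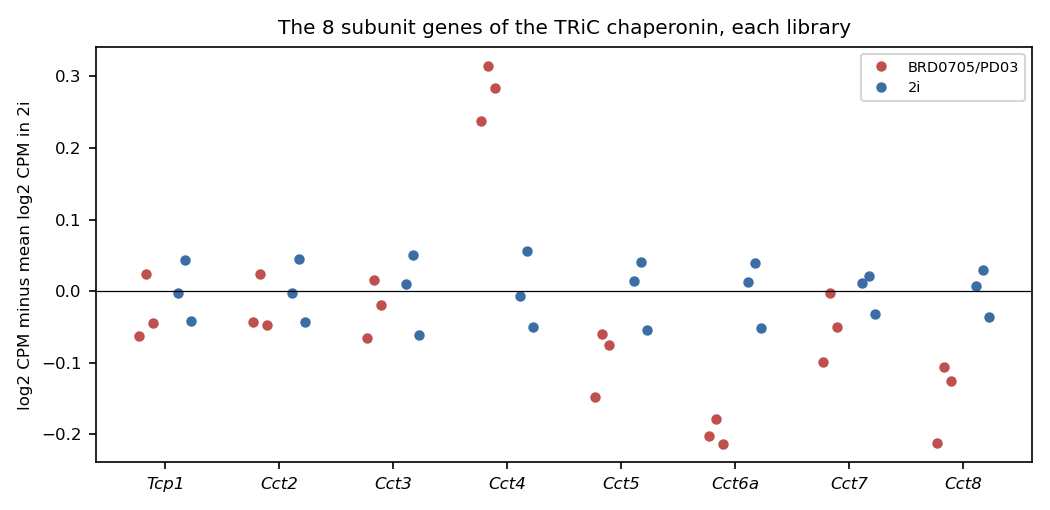
Log2 CPM of the 8 TRiC subunit genes in each library, minus the mean log2 CPM of that gene in 2i, with BRD0705/PD03 in red on the left and 2i in blue on the right. The Cct4 points of BRD0705/PD03 lie above those of 2i, those of Cct5, Cct6a and Cct8 lie below, and the groups overlap in Tcp1, Cct2, Cct3 and Cct7.

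Of the heat shock factors, Hsf2, which acts in development and can form mixed trimers with Hsf1, was higher in BRD0705/PD03. It had 114, 120.2 and 117 CPM in BRD0705/PD03, against 83.3, 80.1 and 81.5 CPM in 2i. The groups were separate, with a log2 fold change of 0.52 ± 0.04 (SE; edgeR adjusted p = 2.64e-09). Hsf1 had 27.1, 24.7 and 26.4 CPM in BRD0705/PD03, against 24.4, 24.5 and 23.6 CPM in 2i. Its log2 fold change of 0.11 ± 0.06 did not pass (edgeR adjusted p = 0.117), although it did with upper-quartile scaling (0.0158).

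Ratios of 2 genes within a library do not depend on the scaling between libraries, and 12 pairs of related members were compared in this way. The groups were fully separate in 10 of the 12 pairs, where the exact two-sided permutation test of 3 against 3 libraries gave p = 0.1, the smallest it can give (adjusted over the 12 pairs, 0.12). The log2 ratio of Hsp90aa1 to Hsp90ab1 was 0.66 ± 0.03 in BRD0705/PD03 and 0.90 ± 0.02 in 2i (SD, n = 3 each). The log2 ratio of Hsph1 to Hspa4 was -2.16 ± 0.07 in BRD0705/PD03 and -1.51 ± 0.07 in 2i. The log2 ratio of Bag3 to Bag1 was -2.47 ± 0.05 in BRD0705/PD03 and -3.35 ± 0.04 in 2i, and that of Dnajb4 to Dnajb1 was -2.19 ± 0.18 in BRD0705/PD03 and -3.17 ± 0.19 in 2i. In each of these 4 pairs, every BRD0705/PD03 library lay to the same side of every 2i library. The log2 ratio of Hspe1 to Hspd1 was -1.94 ± 0.06 in BRD0705/PD03 and -2.17 ± 0.10 in 2i, and that of Hsf2 to Hsf1 was 2.16 ± 0.11 in BRD0705/PD03 and 1.75 ± 0.04 in 2i. The groups overlapped for Hspa9 to Hspa8 (difference 0.03, exact permutation p = 0.5) and for Dnajb1 to Dnaja1 (difference -0.13, exact permutation p = 0.2).

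Members with and without the heat shock element letters were found on both sides. Of the 11 members with a 2-unit match, 5 were higher, 2 lower and 4 not called, with a median log2 fold change of 0.02. Of the 14 members whose windows lack it, 4 were higher, 2 lower and 8 not called, with a median of -0.03. The tandem Hspa1a and Hspa1b carry a match and were higher, Hspb1 and Hsph1 carry a match and were lower, and Bag3, Hsf2 and Trap1 were higher without one. Dnajb4 has 2 annotated start sites, and the match lies 14 bases upstream of only the inner one. Dnaja1, Cct2, Cct5 and Hspd1 likewise had windows both with and without a match. Hspa1a with Hspa1b, and Hspd1 with Hspe1, are not separate occurrences in this split either. No test was made of it.

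Other genes of the same pathways, 185 in 9 lists, were read from the same fit, and 177 of them were tested, with 36 higher and 84 lower. The shares over all tested genes, for this and each list below, were 30.1% higher and 31.4% lower. Of 15 other Hsp70, Hsp110 and exchange factor genes, 4 were higher and 1 lower (median log2 fold change 0.08), with 7 higher under upper-quartile scaling and 2 with DESeq2. Hspa4l, an Hsp110 relative, was higher by 0.84 ± 0.08 (SE) on the log2 scale, Hspbp1 was higher by 0.18 ± 0.06, and the mitochondrial exchange factor gene Grpel2 was lower at -0.17 ± 0.05. The calls of Hspbp1 and Grpel2 were lost with DESeq2, and that of Grpel2 with upper-quartile scaling too.

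Of 35 tested J-domain genes outside the 32 members, 8 were higher and 13 lower, with a median log2 fold change of -0.04. Among those averaging 5 CPM or more, Dnajb5 (0.60), Dnajc27 (0.58) and Dnajc13 (0.20) had the largest positive log2 fold changes. Dnajc6 and Gak, the auxilins that recruit Hsc70 to clathrin coats, were lower at -1.13 ± 0.04 and -0.64 ± 0.04 (SE), as was Dnajc4 at -0.85. Hspa8, their partner, was among the lower members.

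Of 22 other Hsp90 co-chaperone genes, 11 were higher and 8 lower, with a median log2 fold change of 0.05. The number of lower ones was 3 with DESeq2 and 2 with upper-quartile scaling. Unc45a, a myosin chaperone, was higher by 0.65 ± 0.05 (SE) on the log2 scale, and Nudcd3 (0.52) and Sugt1 (0.34) followed it. Tomm34, which guides precursors to mitochondria, was lower at -0.61 ± 0.04, and the kinase-loading co-chaperone gene Cdc37 (-0.20) was lower too.

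Of 17 TRiC partner and prefoldin genes, 1 was higher and 8 lower, with a median log2 fold change of -0.02, and 4 were lower with DESeq2. Vbp1 (prefoldin 3) was lower at -0.71 ± 0.04 (SE), Pfdn1 at -0.40 and Txndc9 at -0.32. Vbp1 is X-linked, and the 566 X-linked genes at a mean of 1 CPM or more had a median log2 fold change of -0.80, against -0.004 for 15142 autosomal genes. The 9 Y-linked genes at a mean of 1 CPM or more had a median of 0.72. The part of these shifts in the Vbp1 value, or of what lies behind them in the values of the 32 members, was not tested. Tbcc, a tubulin folding cofactor gene, was the higher one at 0.32, a call lost with DESeq2. None of the 32 members is X-linked.

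Of 9 other genes listed as small heat shock protein genes, 4 were tested. Cryab, which encodes αB-crystallin, had 13.5, 10.5 and 12.1 CPM in BRD0705/PD03, against 4.93, 6.98 and 7.50 CPM in 2i (log2 fold change 0.86). Hspb11, in the list by its symbol, was likewise higher (log2 fold change 0.74). Hspb8, the partner of Bag3 in selective autophagy, had 64.8, 67.3 and 65.4 CPM in BRD0705/PD03, against 113, 119 and 111 CPM in 2i. Its log2 fold change of -0.80 ± 0.04 (SE) was opposite in sign to that of Bag3 and close to that of Hspb1.

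Of 14 other mitochondrial protein quality genes, 2 were higher and 8 lower, with a median log2 fold change of -0.16. Spg7, a subunit of the inner membrane m-AAA protease, was higher by 0.76 ± 0.05 (SE) on the log2 scale, whereas Afg3l2, which forms that protease with it, was lower at -0.38 ± 0.04. Yme1l1 was higher by 0.21, and the proteases Htra2 (-0.59) and Pitrm1 (-0.43) were lower. Of 10 tested genes that are heat shock factors or other inducible genes, 3 were higher and 4 lower (5 higher with upper-quartile scaling). Ier5, known to promote Hsf1 activity, had 12.9, 12.7 and 11.5 CPM in BRD0705/PD03, against 5.28, 4.57 and 4.42 CPM in 2i (log2 fold change 1.39 ± 0.10, SE). Hmox1, the heme oxygenase gene, was higher by 0.42 and Dedd2 by 0.20, and the polyubiquitin gene Ubb (-0.31), Cacybp (-0.20) and Hsbp1 (-0.18), whose protein binds Hsf1, were lower. The calls of Dedd2 and Hsbp1 were lost with DESeq2.

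The chaperones of the endoplasmic reticulum stood beside the cytosolic ones as follows. Of 28 endoplasmic reticulum chaperone and unfolded protein response genes, 24 were lower and 1 was higher, with a median log2 fold change of -0.46, against -0.02 for the 32 members. Sdf2l1 (-1.54), Pdia4 (-1.26) and Creld2 (-1.21) were lowest, and Atf4, a translationally controlled stress factor, was the higher one at 0.13. The 32 proteasome subunit genes had 4 higher and 17 lower members and a median of -0.11. Psmc5 (0.29), Psma7 (0.23) and Psmd6 (0.16) were higher, and Psmd3 (-0.51), Psmc1 (-0.39) and Psmd2 (-0.38) lower. These differences between lists are counts and medians, without a test of the lists against each other.

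**Figure D5:**
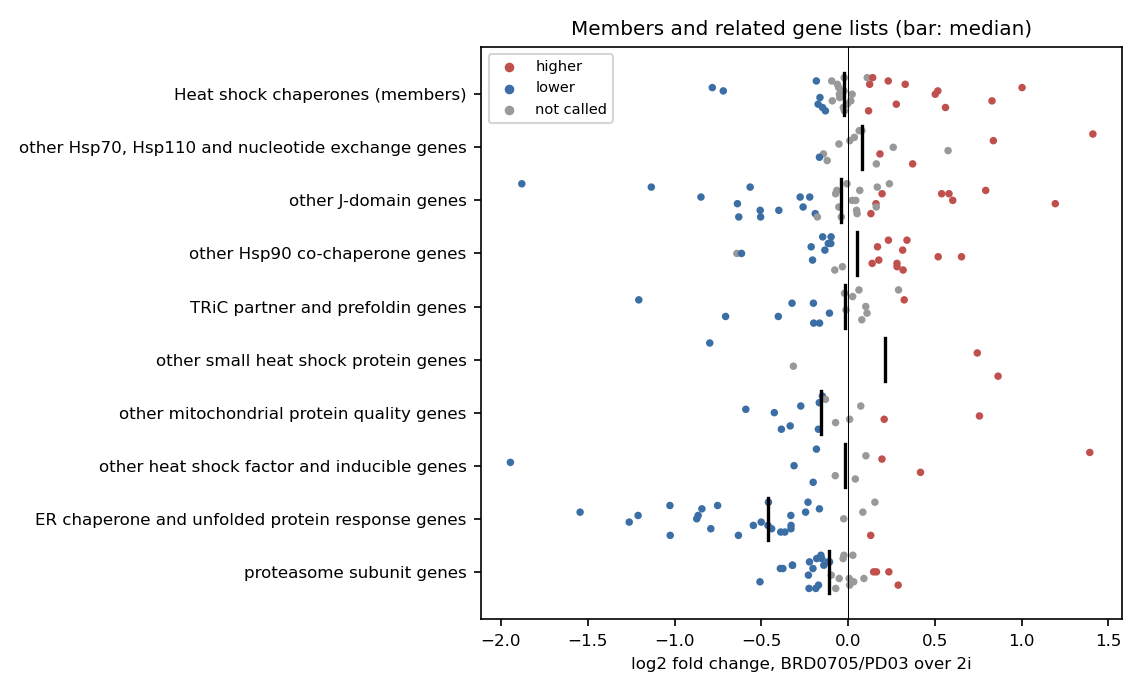
Log2 fold change, BRD0705/PD03 over 2i, of the 32 members (top) and of each tested gene of the 9 related lists; points are genes (red called higher, blue lower, grey neither), the black bar is the list's median, and the vertical spread carries no value. The members' median is -0.02 and that of the endoplasmic reticulum list -0.46.

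Marker genes of cell types and immediate early genes moved between the groups too. All 16 fibroblast markers, which feeders would carry, were detected, 15 were higher in BRD0705/PD03, and their summed level was 1988 to 2621 CPM in BRD0705/PD03 and 1542 to 1588 CPM in 2i. Col3a1 had 232, 312 and 349 CPM in BRD0705/PD03, against 128, 127 and 127 CPM in 2i. Of 13 tested immediate early genes, which respond to stress and dissociation among other signals, 9 were higher and 3 lower. Among them, Fos had 93.7, 86.5 and 76.3 CPM in BRD0705/PD03, against 22.9, 21.8 and 20.1 CPM in 2i. Of 10 ESC markers, 5 were higher and 4 lower, and their summed level was 3096 to 3194 CPM in BRD0705/PD03 and 3624 to 3922 CPM in 2i. Their log2 fold changes ran from -1.09 to 1.41, with a median of 0.13, so the markers did not move together. Sox2 had 282 to 297 CPM in BRD0705/PD03 and 289 to 317 CPM in 2i and was not called, and Nanog had 301 to 337 CPM in BRD0705/PD03 and 619 to 635 CPM in 2i. The part of feeder cells or of handling in the member results was not tested. The library totals were 27825601 to 40790837 counts in BRD0705/PD03 and 16968959 to 51180228 in 2i, and no 2 libraries of a group agreed within sampling noise (chi-square per degree of freedom 2.77 to 9.84).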

How the data were processed

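RNA-seq libraries from 6 mouse ESC samples, 3 labelled BRD0705/PD03 and 3 labelled 2i, were prepared from ribosome-depleted total RNA, according to the labels' protocols. The deposited values are estimated counts per gene symbol, whole numbers and not scaled between libraries. The submitters' processing notes name Salmon and mm10 (version, annotation and strand: not given in the sources used here). Salmon divides reads among similar transcripts, so members with close copies are less certain.

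The test was edgeR 4.0.16 under R 4.3.3 (filterByExpr, TMM, robust quasi-likelihood fit, group only, Benjamini-Hochberg over 20422 genes, threshold 0.05, two-sided). CPM use effective library sizes, and SE is the log2 fold change over the square root of F. Alternatives were other scalings, DESeq2 1.42.0, other low-count limits, testing against a fold of 1.2, a replicate block, leaving out each library, and close copies merged. Ratios used a prior count of 2. Coordinates and transcript lengths are GENCODE M21's on GRCm38; promoter windows are RefSeq's. On simulated data, the share of false calls exceeded the threshold, few changes of 1.2-fold were recovered and part of the larger ones were missed. Calls, above all of small changes, are thus less certain. The simulation changed far fewer genes than were called here, at all levels, so it does not measure the error of the member calls. The members and lists were chosen with earlier results of these data known. All 32 members are named, and from each related list up to 3 higher and 3 lower called genes averaging 5 CPM or more, by the largest absolute log2 fold change, plus set markers. A gene that this rule named is left out of the text.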

Additional observations from a re-analysis of the deposited data

How the results depend on the processing

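Over 14 alternative settings, 420 of 448 member values stayed on their side of the threshold, 23 were no longer called and 5 became called. In 27 of the 420, from 10 members that were not called, the sign changed, 9 of them with upper-quartile scaling; no called value changed sign. Leaving out the test against a fold of 1.2, 13 of the 18 called members were called in all 13 other settings. The exceptions were Hspa1a, Hspa9, Hspe1, Dnaja1 and Ahsa1. Tested against a fold of 1.2, 5 members were higher and 2 lower, beside 4172 higher and 4384 lower of all 20422 tested genes. In the related lists 13 were higher and 38 lower, against 36 and 84 in the main test. The test against a fold demands a larger change. Leaving out 1 library gave 7 to 11 higher and 7 to 9 lower members, the 7 higher being without BRD0705/PD03 replicate 3. Over all genes it gave 5650 to 6261 higher and 5900 to 6309 lower. The members' median log2 fold change was 0.0434 with upper-quartile scaling, which moves the median of all genes by 0.0657, and ran from -0.0438 to 0.0213 when 1 library was left out; its sign is not settled. Merging close copies, an alternative chosen after seeing the data, gave 10 higher and 7 lower, with Hspa1a and Hspa1b as 1 gene. All 96 alternative values of the 12 ratios kept their direction. With a replicate block, 11 members were higher and 7 lower, and 12435 of all genes were called, against 12544. Same-numbered libraries had deviations correlated at -0.056, 0.1 and 0.027 over 11270 genes, and differently numbered ones at -0.18 to 0.157. No pairing by number was seen, but 3 libraries in a group are too few to exclude it. Depth limits Hspa1a, with 42 to 150 counts in a library.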
